A study of Mus musculus with 90 samples.

Results

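The nuclear genes for the subunits of the 5 oxidative phosphorylation complexes were chosen by symbol among protein-coding genes, with no measured value used. Earlier results of these data were known when the choice was made. The symbols were those of the Nduf, Sdh, Uqcr, Cyc1, Cox4 to Cox8 and Atp5 families, and pseudogene symbols were left out. The choice gave 83 of the 37991 genes counted. There were 36 for complex I (NADH dehydrogenase), 4 for complex II (succinate dehydrogenase), 9 for complex III (the cytochrome bc1 complex), 18 for complex IV (cytochrome c oxidase) and 16 for complex V (ATP synthase). A filter on low counts kept 82 of them for frontal cortex and 81 each for amygdala and hypothalamus. Cox8c failed it in every region, and Cox8b passed it only in frontal cortex and in the comparison of regions.

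Oxidative phosphorylation takes place in the inner mitochondrial membrane. Complexes I, III and IV pass electrons to oxygen and pump protons, complex II feeds electrons in from the citric acid cycle, and complex V uses the proton gradient to make ATP. The mitochondrial genome encodes some core subunits of complexes I, III, IV and V, and nuclear genes encode the rest. Neurons draw on this ATP mainly to restore ion gradients after electrical activity.

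The study measured how 3 brain regions of resident mice responded to a territorial intruder. All residents were male C57BL/6J mice that had lived with a female until shortly before the trial, so the controls share that history; their age was not stated. For 5 min they were shown a mesh cage holding either a male BALB/cJ mouse (intruder group) or a paper cup (control group). Amygdala, frontal cortex and hypothalamus were taken 30, 60 or 120 min later and sequenced as stranded poly(A) RNA libraries. The 90 libraries form 18 groups of 5, except 6 controls and 6 intruder libraries in frontal cortex at 120 min and 3 controls in hypothalamus at 30 min. Each label names 1 animal, although the design text speaks of pooled RNA, so the p-values below measure only the spread between libraries.

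Each library held 38.6 to 58.9 Mreads (megareads) assigned to genes, with a median of 49.0 Mreads, and the 83 genes together took 0.805% to 1.138% of them. Markers followed the dissection labels: against frontal cortex controls, hypothalamus controls had all 8 tested hypothalamic markers higher and all 6 markers of excitatory cortical neurons lower. Several libraries, of which those named here are examples, stood apart from their group in the mean log2(CPM + 1) of markers of other tissue. In intruder replicate 1 of frontal cortex at 120 min it was 1.46 for hypothalamic, 4.72 for thalamic and 2.72 for ependymal markers, where its group's other libraries had at most 0.43, 3.43 and 1.31. Choroid plexus markers stood at 5.98 in control replicate 5 of amygdala at 60 min (others 1.77 to 2.69) and at 3.49 in intruder replicate 1 of frontal cortex at 60 min (others 1.37 to 1.86). Striatal markers stood at 8.36 in control replicate 6 of amygdala at 60 min (others 5.19 to 6.13), and thalamic markers at 6.32 in control replicate 6 of hypothalamus at 120 min (others 4.54 to 4.82). Over all amygdala libraries striatal markers ranged from 4.58 to 8.36, and the part of this spread in the results was not tested. No 2 libraries of a group were alike within sampling noise. The column headers carry one tag on all 28 libraries of 30 min and another on all 62 libraries of 60 and 120 min, and its meaning is not given. Any comparison with 30 min therefore cannot be told apart from that tag, whereas 120 against 60 min lies within 1 tag.

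Sequences upstream of the genes were read from RefSeq (GRCm38.p6), which gave the 250 bases before the start of 67 of the 83 genes. Transcription factors long linked to these promoters are NRF1 (searched as GCGCATGCG), the ETS protein GABP (CCGGAAG), YY1 (AAGATGGCG), ERR (TCAAGGTCA) and SP1 (GGGCGG). Each motif was searched on both strands, and the end of the ETS letters can overlap the start of the YY1 letters. The NRF1 letters stood before 6 subunit genes, Ndufa8, Ndufa11, Cox6a1, Atp5g2, Atp5k and Atp5l, or 8.96% against 1.64% of the 27025 genes with a window. The ETS letters stood before 12, or 17.9% against 7.83%. The ERR letters stood before Atp5g3 alone (1.49% against 0.422%), the YY1 letters before Atp5j alone (1.49% against 0.71%), and the SP1 letters before 24 (35.8% against 35.4%). A match describes the sequence and does not show that a factor binds there.

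Windows from 1 member of each complex are printed because these members rose together in frontal cortex, as described further on. Each is the member with the smallest p-value for that rise among those with the NRF1 letters or, in complexes II and III, which have none, the ETS letters. All lie on the minus strand, Ndufa8 at chr2:36049339-36049588, Sdhd at chr9:50603850-50604099, Uqcr11 at chr10:80406822-80407071, Cox6a1 at chr5:115348959-115349208 and Atp5l at chr9:44920743-44920992. Each reads 5′ to 3′ towards the gene, with the matched letters, from either strand, in capitals (NRF1 in Ndufa8, Cox6a1 and Atp5l, and ETS in Sdhd and Uqcr11). Only the motif by which a window was chosen is in capitals. In lower case, Cox6a1 and Atp5l also hold the ETS letters, and Ndufa8 and Cox6a1 the SP1 letters.
Ndufa8: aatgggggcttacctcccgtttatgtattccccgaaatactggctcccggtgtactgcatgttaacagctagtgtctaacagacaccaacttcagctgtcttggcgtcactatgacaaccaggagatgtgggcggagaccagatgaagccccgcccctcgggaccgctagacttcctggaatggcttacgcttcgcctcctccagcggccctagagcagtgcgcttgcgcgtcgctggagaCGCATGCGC
Sdhd: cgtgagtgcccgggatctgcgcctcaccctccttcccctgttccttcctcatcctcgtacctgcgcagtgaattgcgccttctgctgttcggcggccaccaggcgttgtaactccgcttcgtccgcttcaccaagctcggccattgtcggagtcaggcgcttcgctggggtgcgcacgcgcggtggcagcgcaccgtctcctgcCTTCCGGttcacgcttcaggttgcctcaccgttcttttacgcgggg
Uqcr11: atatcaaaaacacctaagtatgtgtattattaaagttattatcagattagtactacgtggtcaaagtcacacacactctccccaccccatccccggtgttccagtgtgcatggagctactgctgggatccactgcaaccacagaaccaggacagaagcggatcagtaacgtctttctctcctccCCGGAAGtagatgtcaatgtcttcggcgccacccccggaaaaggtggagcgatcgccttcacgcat
Cox6a1: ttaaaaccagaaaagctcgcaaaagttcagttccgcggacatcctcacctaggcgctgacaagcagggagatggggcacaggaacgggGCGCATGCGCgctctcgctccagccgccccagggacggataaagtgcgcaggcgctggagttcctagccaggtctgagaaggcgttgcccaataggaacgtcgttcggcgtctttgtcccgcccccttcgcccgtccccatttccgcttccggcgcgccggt
Atp5l: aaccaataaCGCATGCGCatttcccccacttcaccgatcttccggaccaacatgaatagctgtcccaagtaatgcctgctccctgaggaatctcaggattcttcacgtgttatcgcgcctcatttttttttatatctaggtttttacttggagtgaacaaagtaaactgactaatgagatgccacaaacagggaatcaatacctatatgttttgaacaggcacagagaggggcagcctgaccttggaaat
The match begins 9 bases before the RefSeq start in Ndufa8, 46 in Sdhd, 66 in Uqcr11, 162 in Cox6a1 and 241 in Atp5l. In the annotation that gave the symbols, Ndufa8 begins further upstream, at base 36049406, so its match lies inside that gene. Ndufa8 is an accessory subunit of complex I, and Sdhd is the other membrane anchor of complex II.

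Levels of different genes were compared per transcript length, as transcripts-per-million (TPM), in the 16 frontal cortex controls. In complex I the highest was Ndufa4 (711.1 ± 42.2, SD), which carries a complex I name although its protein is now counted with cytochrome c oxidase, and the lowest was the small accessory subunit Ndufc1 (56.3 ± 3.55). In complex II the flavoprotein Sdha, which oxidises succinate, stood at 279.1 ± 10.9 and the membrane anchor Sdhc at 61.2 ± 3.9. In complex III the hinge protein Uqcrh stood at 538.0 ± 34.2 and the Rieske iron-sulfur protein Uqcrfs1 at 174.2 ± 9.04. In complex V the catalytic beta subunit Atp5b was highest at 1268 ± 45.8 and Atp5j2 lowest at 193.2 ± 16.

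Complex IV had the widest span, because several of its subunits come in isoforms. Cox8a reached 1258 ± 87.1 TPM and Cox4i1 1124 ± 90. The heart and muscle isoforms Cox6a2, Cox7a1 and Cox8b stood at 16.6, 6.34 and 0.868 TPM. Cox4i2, an isoform known from lung and low oxygen, stood at 4.26, and the testis isoforms Cox6b2 and Cox7b2 at 4.29 and 1.27, while Cox8c had no read in frontal cortex controls. The 3 genes that encode the same mature c-ring subunit of complex V were all well expressed, with Atp5g3 at 632.4, Atp5g1 at 355.3 and Atp5g2 at 304.3 TPM.

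The first comparison asked how the subunit genes differ between regions in the control mice (16 frontal cortex, 15 amygdala and 13 hypothalamus libraries, with the 3 times weighted equally). Of the 81 members tested in every region, 73 had their highest control mean in frontal cortex and 65 their lowest in hypothalamus, and 63 followed the order frontal cortex, amygdala, hypothalamus. Against frontal cortex, 70 of 82 members were called lower in hypothalamus and 3 higher (edgeR quasi-likelihood test, Benjamini-Hochberg adjusted p below 0.05 over all 18056 genes tested, here termed called). These regions differ widely, and 82.2% of all genes were called, 40.8% lower and 41.4% higher. The median log2 difference was -0.26 over the members and 0.01 over all genes. Libraries of different regions can come from the same animal, and the p-values between regions treat them as independent. With the animal fitted as a block, 73 members were called.

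Complex IV stood furthest below frontal cortex in hypothalamus, with 14 of 17 members called lower, 1 higher and a median of -0.63. The medians were -0.29 in complex V (16 of 16 lower), -0.25 in complex III (8 of 9 lower), -0.21 in complex I (30 of 36 lower, 1 higher) and -0.09 in complex II (2 of 4 lower, 1 higher). In 21 members every hypothalamus control lay below every frontal cortex control, as in 18.9% of all genes. Of those 21 members, 9 belong to complex IV.

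**Figure D1:**
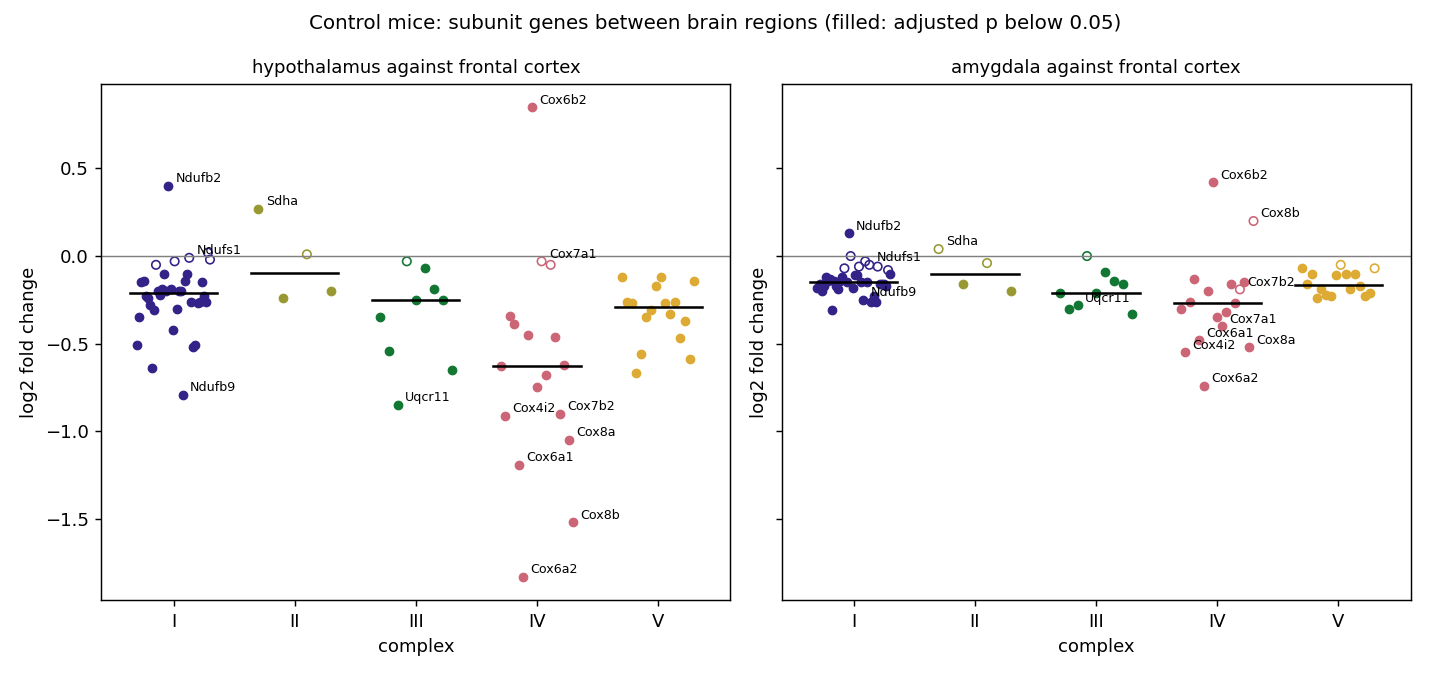
Log2 difference between control libraries of 2 regions (vertical axis, hypothalamus or amygdala against frontal cortex) for each subunit gene, grouped by complex on the horizontal axis; filled points have an adjusted p below 0.05 and bars are medians. Most points lie below 0, and those of complex IV reach lowest in hypothalamus, down to -1.83 for Cox6a2.

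Cox6a1, the general isoform of subunit 6a, gave from 204.5 to 272.8 counts-per-million (CPM, median 220.1) in frontal cortex, from 135.5 to 202.2 (162.9) in amygdala and from 85.5 to 118.1 (101.3) in hypothalamus. The 3 regions did not overlap. Hypothalamus stood below frontal cortex by a log2 difference of -1.19 ± 0.053 (SE, edgeR adjusted p = 1.36e-22), and amygdala by -0.48 ± 0.049 (edgeR adjusted p = 3.11e-11). Its muscle isoform Cox6a2 ranged from 4.28 to 6.78 CPM (median 5.18) in frontal cortex, from 2.35 to 4.28 (3.05) in amygdala and from 0.87 to 2.05 (1.53) in hypothalamus. Both isoforms of this subunit were thus lowest in hypothalamus, Cox6a2 by -1.83 ± 0.110 (edgeR adjusted p = 2.02e-18).

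Cox8a, the general isoform of subunit 8, ranged from 287.4 to 386.2 CPM in frontal cortex, from 171.6 to 293.4 in amygdala and from 131.2 to 187.9 in hypothalamus. Hypothalamus and frontal cortex did not overlap, with a log2 difference of -1.05 ± 0.051 (edgeR adjusted p = 1.63e-21). Cox4i1, which holds the regulatory subunit 4 of the enzyme, ranged from 335.6 to 489.3 CPM in frontal cortex and from 212.4 to 295.1 in hypothalamus, a difference of -0.63 ± 0.049. Cox5a differed by -0.34 ± 0.051, Cox7a2 by -0.68 ± 0.043 and Cox6c by -0.75 ± 0.049. Cox6b2, the testis isoform of subunit 6b, was the exception in complex IV. It ranged from 0.6 to 1.26 CPM in frontal cortex and from 1.23 to 2.24 in hypothalamus, higher by 0.85 ± 0.130 (edgeR adjusted p = 1.93e-07), with the ranges meeting at their edges.

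The other low isoforms of complex IV divided. Cox4i2 ranged from 0.978 to 2.03 CPM in frontal cortex and from 0.636 to 1.1 in hypothalamus, overlapping, and was lower there by -0.91 ± 0.113 (edgeR adjusted p = 2.01e-09). Cox7a1 had medians of 1.13 CPM in frontal cortex and 1.17 in hypothalamus and was not called (-0.03 ± 0.130). Cox7b2 (-0.90 ± 0.207) and Cox8b (-1.52 ± 0.441) were called lower at medians of 0.299 and 0.135 CPM in frontal cortex against 0.145 and 0.0465 in hypothalamus. Cox8b failed the filter on low counts in hypothalamus alone and passed it here through libraries of other regions. Its lower level in hypothalamus was thus partly set by the filter, and it remains among the members counted as lower. Cox8c gave 0 CPM in all controls.

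**Figure D2:**
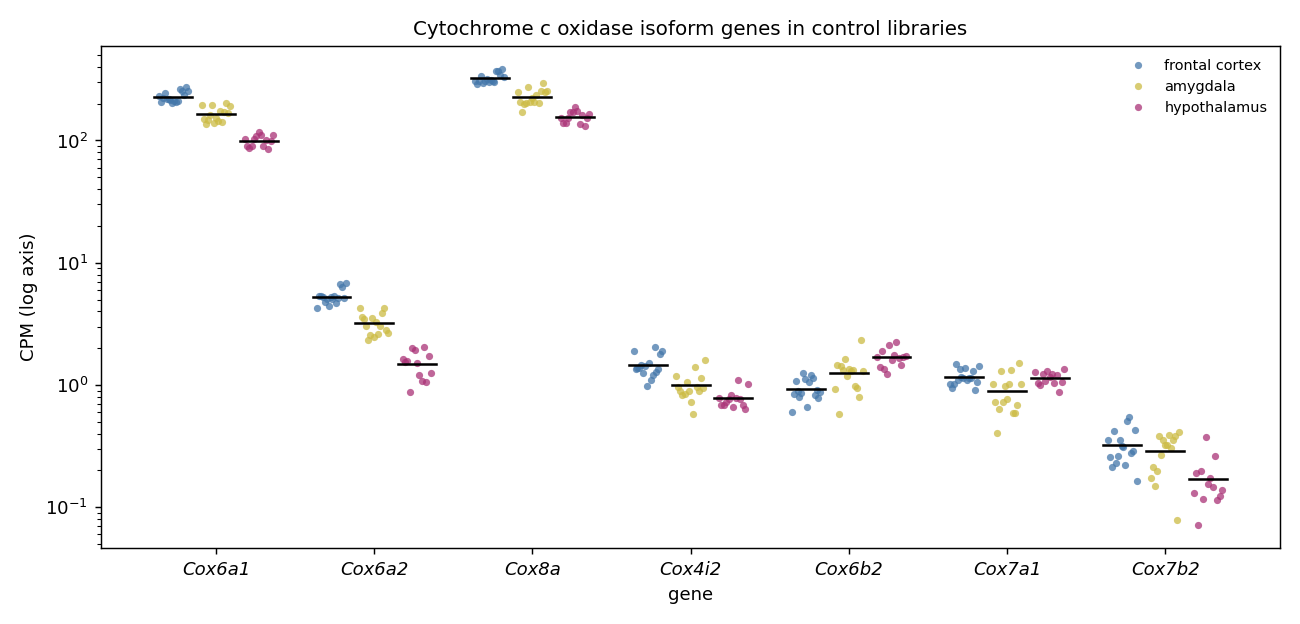
CPM of cytochrome c oxidase isoform genes (log axis) in every control library, coloured by region, with the mean as a bar. Cox6a1, Cox6a2 and Cox8a step down from frontal cortex through amygdala to hypothalamus, while the mean of Cox6b2 is highest in hypothalamus.

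In complex I the largest difference was that of the accessory subunit Ndufb9, from 129.5 to 173.3 CPM in frontal cortex and from 70.2 to 100.1 in hypothalamus (-0.79 ± 0.044, edgeR adjusted p = 1.81e-19). Ndufb2, another accessory subunit of the same membrane arm, went the other way, from 28.2 to 34.8 CPM in frontal cortex and from 37.5 to 44.8 in hypothalamus (0.40 ± 0.030, edgeR adjusted p = 1.8e-15). In neither gene did these 2 regions overlap. The catalytic core was nearer to even: Ndufs1, its largest iron-sulfur subunit, differed by -0.01 ± 0.041 and was not called, Ndufv1, which binds NADH, by -0.26 ± 0.034, and Ndufs7 by -0.15 ± 0.045.

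In complex II, Sdha was higher in hypothalamus (401.5 to 494.4 CPM) than in frontal cortex (341.1 to 401.8 CPM), by 0.27 ± 0.026 (edgeR adjusted p = 4.31e-12), and the ranges met at their edges. Its iron-sulfur partner Sdhb was lower by -0.24 ± 0.034, and Sdhc, at 0.01 ± 0.035, was not called. In complex III the small accessory subunit Uqcr11 differed most, from 70.9 to 104.7 CPM in frontal cortex against 37.4 to 50 in hypothalamus (-0.85 ± 0.053, edgeR adjusted p = 4.52e-18). The electron carriers of that complex differed less, Cyc1 (cytochrome c1) by -0.35 ± 0.037 and Uqcrfs1 by -0.19 ± 0.044. In complex V, Atp5d, of the central stalk, differed by -0.67 ± 0.039 (edgeR adjusted p = 7.9e-19) and Atp5b by -0.26 ± 0.039. The c-ring genes Atp5g1, Atp5g2 and Atp5g3 differed by -0.31 ± 0.034, -0.17 ± 0.032 and -0.12 ± 0.040.

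Amygdala lay between the other regions. Against frontal cortex it had 66 of 82 members called lower and 2 higher (67.8% of all genes called, 33.2% lower), with a median of -0.16. Complex IV again had the lowest median, -0.27, with Cox6a2 at -0.74 ± 0.097 and Cox8a at -0.52 ± 0.047, and the 2 genes called higher were Ndufb2 (0.13) and Cox6b2 (0.42). At the times taken one by one, a choice made after seeing the data, amygdala had 12 members called lower and 2 higher at 30 min (median -0.05, 48.6% of all genes called), 68 lower and 0 higher at 60 min (median -0.27, 53.5%) and 45 lower and 1 higher at 120 min (median -0.17, 49.9%). Against hypothalamus it had 47 members called higher and 8 lower (72.3% of all genes called, 36.4% higher), with a median of 0.11 and of 0.36 in complex IV. Taken by time, that difference gave 19 higher and 7 lower at 30 min (median 0.03, 50% of all genes called), 54 higher and 2 lower at 60 min (median 0.22, 59.5%) and 27 higher and 2 lower at 120 min (median 0.12, 54.8%). At 30 and 120 min the share of members called was below that of all genes. Over all times, amygdala had 67 and 70 members called against frontal cortex without control replicate 5 or 6 of 60 min, and 55 and 53 against hypothalamus; without control replicate 6 of hypothalamus at 120 min the last comparison gave 57.

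Taken one time at a time in the same way, hypothalamus against frontal cortex gave 26 members called lower and 7 higher at 30 min (median -0.09, 66.1% of all genes called), 75 lower and 3 higher at 60 min (median -0.45, 73.2%) and 64 lower and 3 higher at 120 min (median -0.26, 71.6%). Complex IV stayed lower throughout, with medians of -0.47, -0.86 and -0.63. Cox6a1 differed by -0.92 ± 0.102, -1.40 ± 0.087 and -1.25 ± 0.085 at the 3 times in turn. Ndufb2 (0.44, 0.31 and 0.45) and Sdha (0.41, 0.20 and 0.19) were higher in hypothalamus at each time.

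Genes that work with the subunits also differed between regions. All 12 tested mitochondrially encoded protein genes were lower in hypothalamus than in frontal cortex (median -0.67), mt-Atp6 by -0.87 ± 0.053 and mt-Co1 by -0.74 ± 0.044. Cycs, which encodes the cytochrome c that carries electrons to complex IV, was lower by -0.53 ± 0.047. Of 46 assembly factors, which help to build the complexes, 27 were lower and 11 higher (median -0.16). Of 9 regulators of mitochondrial genes, 3 were lower and 6 higher: Esrra, the nuclear receptor ERR alpha, by -1.14 ± 0.068 (edgeR adjusted p = 1.33e-18), Ppargc1a, the coactivator PGC-1 alpha, by -0.36 ± 0.060 and Yy1 by -0.09 ± 0.030, whereas Ppargc1b was higher by 0.45 ± 0.098 and Nrf1 by 0.20 ± 0.036. Cytosolic ribosomal protein genes, another large set of short and abundant transcripts, had 31 of 83 higher and 24 lower, with a median of 0.01.

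Cell type markers moved with region too. The mean log2 level of 5 general neuron markers ran from 9.53 to 9.83 in controls of frontal cortex and from 8.43 to 8.82 in those of hypothalamus, and 4 of the 5 were called lower. That of 5 oligodendrocyte markers ran from 8.12 to 9.30 against 8.95 to 9.56, with 5 of 5 called higher. In amygdala controls the neuron markers lay at 9.04 to 9.42, below every frontal cortex control, with 5 of 5 called lower (median -0.56), and of the oligodendrocyte markers 2 were called lower and 0 higher. In bulk tissue, fewer cells of a type and less RNA per cell cannot be told apart, and the part of cell makeup in the regional differences was not tested. Nor was that of the share of reads in no annotated feature, which for the 60 min controls ran from 8.99% to 9.71% (frontal cortex) against 12% to 13.1% (hypothalamus).

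The second comparison followed the regions over time, and frontal cortex gave the largest movement of the subunit genes. In its controls, 71 of 82 members were called higher at 60 than at 30 min and 0 lower (35.4% of all genes called, 17.2% higher), with a median log2 fold change of 0.24 against 0 over all genes. From 60 to 120 min 57 were called lower and 0 higher (15.9% of all genes called, 7.03% lower), with a median of -0.19. The intruder libraries gave 75 higher and 0 lower (45.5% called, 22.3% higher; median 0.38), and then 64 lower and 0 higher (22.9% called, 10% lower; median -0.22). The highest group mean fell at 60 min for 77 of 82 members in controls and for 79 of 82 in intruder libraries.

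In controls the rise covered all complexes, with 32 of 36 members of complex I, 4 of 4 of complex II, 8 of 9 of complex III, 12 of 17 of complex IV and 15 of 16 of complex V. In 65 members every control at 60 min lay above every control at 30 min, as in 12.4% of all genes. The fall to 120 min covered 28 of 36, 2 of 4, 7 of 9, 9 of 17 and 11 of 16 in the same order. By 120 min the members' median in controls was 0.08 above 30 min, and Ndufa7, Sdha and Uqcrc1 were called, all higher (4.42% of all genes called). Of 82 members 68 still had their lowest control mean at 30 min. The count of calls ran from 0 to 7 over the other settings and with 1 library left out. In intruder libraries 39 were still called higher than at 30 min (17.7% of all genes called), with a median of 0.15.

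**Figure D3:**
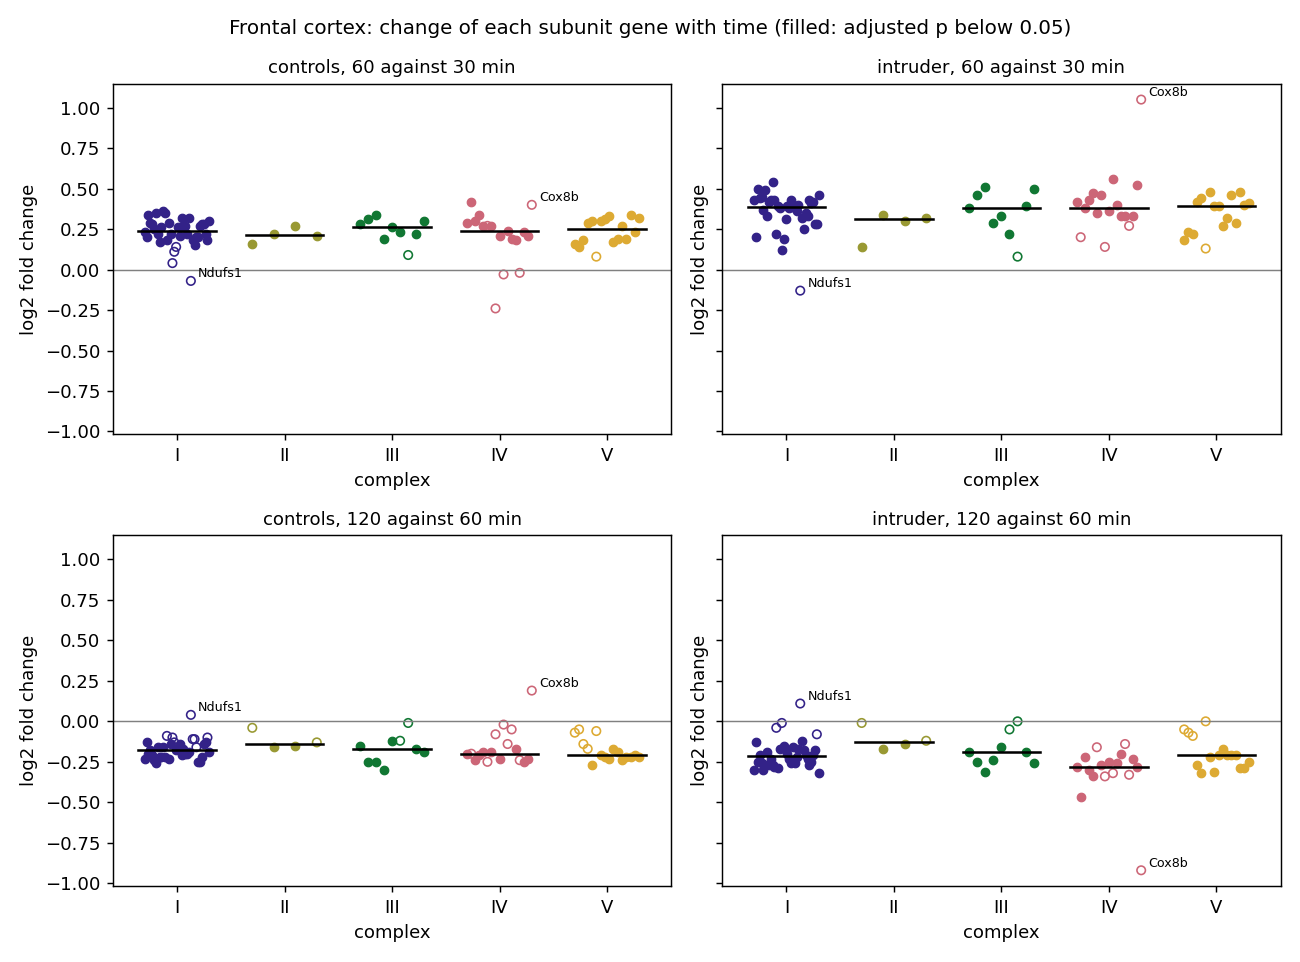
Log2 fold change of each subunit gene in frontal cortex (vertical axis) by complex (horizontal axis), for 60 against 30 min and 120 against 60 min in controls and in intruder libraries; filled points have an adjusted p below 0.05 and bars are medians. Every filled point lies above 0 at 60 min and below 0 from 60 to 120 min; Ndufs1 and some low isoforms, such as Cox8b, lie apart as open points.

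In complex I, Ndufa7, an accessory subunit of the matrix arm, gave 46.7, 42.5, 44.2, 46.2 and 45.1 CPM in the controls at 30 min, 58.9, 57.1, 53.9, 63.6 and 57.6 at 60 min, and from 47.7 to 54.9 (median 52.4) at 120 min. The groups at 30 and 60 min did not overlap, and the fold change was 0.36 ± 0.052 on the log2 scale (edgeR adjusted p = 1.8e-05). Ndufc2, of the membrane arm, gave 65.1 to 75.1 CPM at 30 min and 84.5 to 96 at 60 min (0.32 ± 0.045, edgeR adjusted p = 1.53e-05). The core subunits Ndufv1 and Ndufs7 rose by 0.22 ± 0.039 and 0.28 ± 0.056. Ndufs1, in contrast, gave 138.0, 136.2, 145.9, 149.1 and 144.2 CPM at 30 min and 132.0, 145.9, 152.6, 120.4 and 137.0 at 60 min. Those groups overlapped, and Ndufs1 was not called (-0.07).

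In complex II, Sdhc gave 80.6, 80.6, 83.2, 84 and 83.4 CPM in controls at 30 min and 99.5, 103.2, 99.1, 103.5 and 97.4 at 60 min. The groups were apart (0.27 ± 0.042, edgeR adjusted p = 3.21e-05). Sdha rose less, by 0.16 ± 0.030 (edgeR adjusted p = 0.000194), and remained higher at 120 than at 30 min by 0.12 ± 0.028 (edgeR adjusted p = 0.0143). In complex III, Uqcrc1, a core protein, gave 187.4, 181.4, 196.1, 203.1 and 191.6 CPM at 30 min and 230.1, 230.0, 218.9, 239.3 and 241.8 at 60 min (0.26 ± 0.042, edgeR adjusted p = 5.37e-05). Cyc1 rose by 0.28 ± 0.045, whereas Uqcrfs1, at 0.09 ± 0.047, was not called.

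In complex IV, Cox5b, which binds zinc, gave 146.3, 143.0, 146.9, 153.8 and 151.5 CPM in controls at 30 min and 190.5, 182.2, 176.0, 213.3 and 183.4 at 60 min. Every library of 60 min lay above every library of 30 min (0.34 ± 0.058, edgeR adjusted p = 0.000101). Cox4i1 rose by 0.29 ± 0.054 and Cox5a by 0.30 ± 0.063. Among the low isoforms, Cox4i2 was called higher at 60 min in controls (0.42 ± 0.141, edgeR adjusted p = 0.0214), and Cox6a2, Cox6b2, Cox7a1, Cox7b2 and Cox8b were not.

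In complex V, the c-ring gene Atp5g3 gave 178.9, 181.8, 197.4, 192.8 and 197.6 CPM in controls at 30 min, 239.3, 240.1, 229.9, 261.4 and 238.1 at 60 min, and from 193.4 to 212.2 (median 208.2) at 120 min. Every library of 60 min lay above every library of the other times (0.33 ± 0.047 against 30 min, edgeR adjusted p = 1.53e-05). Its partner genes Atp5g1 and Atp5g2 rose by 0.30 ± 0.047 and 0.31 ± 0.053, and Atp5l, of the membrane part, by 0.34 ± 0.048. The catalytic Atp5b rose by only 0.14 ± 0.040 (edgeR adjusted p = 0.00647), and Atp5f1, of the peripheral stalk, was not called (0.08 ± 0.060). Ndufs1, Uqcrfs1, Atp5f1, Cox6b2, Cox7b2 and Cox8b were called in none of the 4 steps between neighbouring times.

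The intruder libraries of frontal cortex went through the same steps, with 35 of 36 members of complex I, 4 of 4 of complex II, 8 of 9 of complex III, 13 of 17 of complex IV and 15 of 16 of complex V called higher at 60 than at 30 min. Ndufa7 gave 39.4, 40.6, 41, 41.8 and 45.7 CPM at 30 min and 53.1, 60.2, 63.1, 66.4 and 63.3 at 60 min, followed by 48.6 to 55 at 120 min. The first 2 groups did not overlap (0.54 ± 0.052, edgeR adjusted p = 5.39e-08), and the fall to 120 min was -0.27 ± 0.049 (edgeR adjusted p = 0.00171). Sdhb, which passes electrons through its iron-sulfur clusters, gave 92.7, 105.5, 91.4, 90.7 and 92.5 CPM and then 112.7, 121.3, 122.3, 121.0 and 126.9. All libraries of 60 min lay above those of 30 min (0.34 ± 0.042, edgeR adjusted p = 5.94e-07).

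Cox8a gave 236.7, 225.5, 280.4, 263.2 and 314.1 CPM in intruder libraries at 30 min and 323.4, 381.5, 356.8, 427.1 and 414.4 at 60 min. The groups were apart (0.52 ± 0.077, edgeR adjusted p = 5.1e-06), whereas in controls its rise was 0.21 (edgeR adjusted p = 0.0364). Atp5g1 rose by 0.48 ± 0.047 and stayed above its 30 min level at 120 min by 0.25 ± 0.045 (edgeR adjusted p = 0.000576). The 39 members still higher at 120 min were 17 of complex I, 4 of complex II, 7 of complex III, 4 of complex IV and 7 of complex V. A test of whether intruder and control libraries differed in their course over time called 0 members in frontal cortex, as given with the intruder results.

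**Figure D4:**
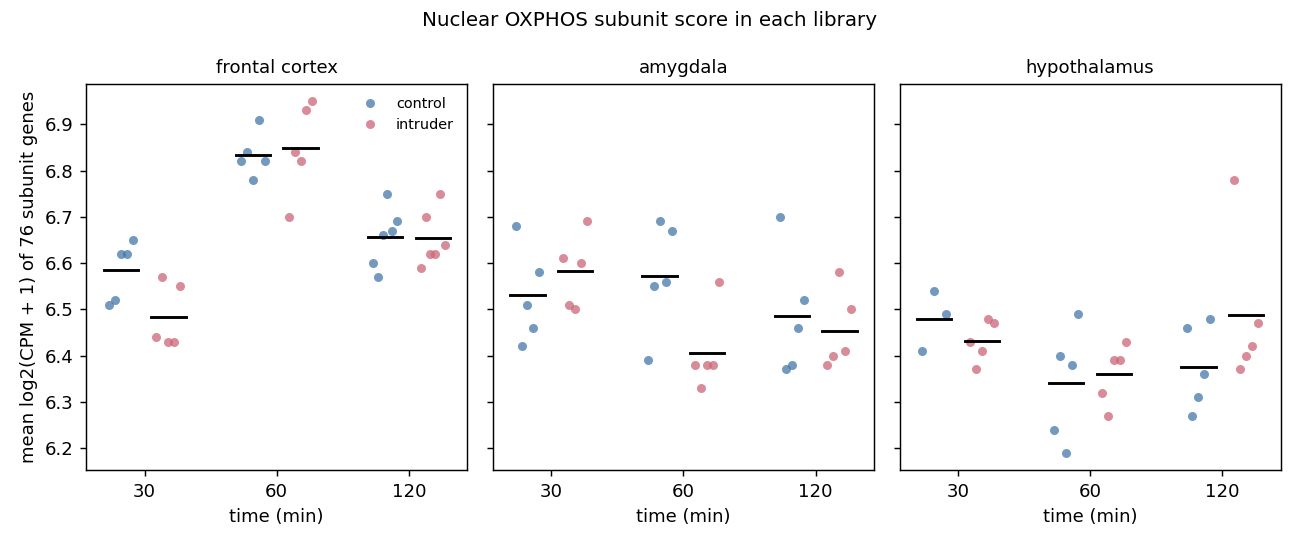
Mean log2(CPM + 1) over 76 subunit genes (vertical axis) in every library, by time in minutes (horizontal axis), condition (colour) and region (panel), with group means as bars. Frontal cortex controls ran from 6.51 to 6.65 at 30 min, then from 6.78 to 6.91 and last from 6.57 to 6.75.

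Other genes moved over the same steps in frontal cortex. From 30 to 60 min in controls, 75 of 83 cytosolic ribosomal protein genes were called higher and 0 lower (median 0.23), and from 60 to 120 min 66 were called lower (median -0.19). Of 46 assembly factors, 24 were higher at 60 min and 1 lower (median 0.15), and of 12 mitochondrially encoded genes 2 were, mt-Nd2 (0.18 ± 0.065) and mt-Nd4 (0.19 ± 0.059). Of 9 regulators 4 were called lower and 0 higher (median -0.09). Ppargc1a (-0.23 ± 0.077), Ppargc1b (-1.05 ± 0.272), Gabpa (-0.41 ± 0.082) and Yy1 (-0.22 ± 0.071) were the 4, and Esrra (0.12 ± 0.063), Tfam (0.00 ± 0.053) and Nrf1 (0.00 ± 0.063) were among the others.

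All 5 oligodendrocyte markers were called higher at 60 than at 30 min in controls, with a mean log2 level of 8.12 to 8.49, then 8.69 to 9.30, and by 120 min 8.39 to 9.03. All 5 red cell markers were too (3.48 to 4, 4.15 to 4.41 and 3.95 to 4.46). Of 5 astrocyte markers 4 were called lower at 60 min (8.32 to 8.53 against 8.13 to 8.38), and of 5 neuron markers 0 were called, with 0 at an unadjusted p below 0.05 (9.62 to 9.81 against 9.63 to 9.80). The part of these cell types in the rise was not tested.

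The make-up of the reads moved too. In frontal cortex controls the share of reads in no annotated feature was 11% to 12.7% at 30 min, 8.99% to 9.71% at 60 min and 9.46% to 11.3% at 120 min. The share without a unique position was 10.2% to 10.5%, 10.7% to 11.3% and 10.1% to 10.7% in the same order. In neither measure did the libraries of 30 and 60 min overlap, and the part of these shares in the rise was not tested.

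Markers and reads moved in the intruder libraries as well. All 5 oligodendrocyte markers were called higher at 60 than at 30 min (mean log2 level 7.79 to 8.56, then 8.60 to 9.18, and 8.41 to 9.17 by 120 min), and all 5 red cell markers were (3.33 to 3.97, then 4 to 4.63), of which 4 were called lower again at 120 min. Of 5 astrocyte markers 3 were called lower at 60 min. Reads in no annotated feature made up 11.4% to 13.2% at 30 min, 8.63% to 10.3% at 60 min and 9.71% to 10.7% at 120 min. Their part in the members' steps was not tested. Without intruder replicate 1 of 60 min, 76 members were called from 30 to 60 min (median 0.43) and 67 from 60 to 120 min (median -0.26). Without intruder replicate 1 of 120 min, 59 members were called from 60 to 120 min (median -0.21) and 44 from 30 to 120 min (median 0.17).

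Transcript length moved with the same result. Over 77 members at 5 CPM or more, the fold change of controls from 30 to 60 min had a correlation across genes of -0.40 with log2 length, and that from 60 to 120 min one of 0.70; the points share their libraries, so this is a description. All genes with transcripts up to 1 kb had a median of 0.14 from 30 to 60 min and those over 4 kb one of -0.15, while the 55 members up to 1 kb had 0.27. With GC content and length as an offset for each library, 44 members were called from 30 to 60 min in controls (median 0.12) and 12 from 60 to 120 min (median -0.08). In intruder libraries the offset gave 63 (median 0.18) and 20 (median -0.07).

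**Figure D5:**
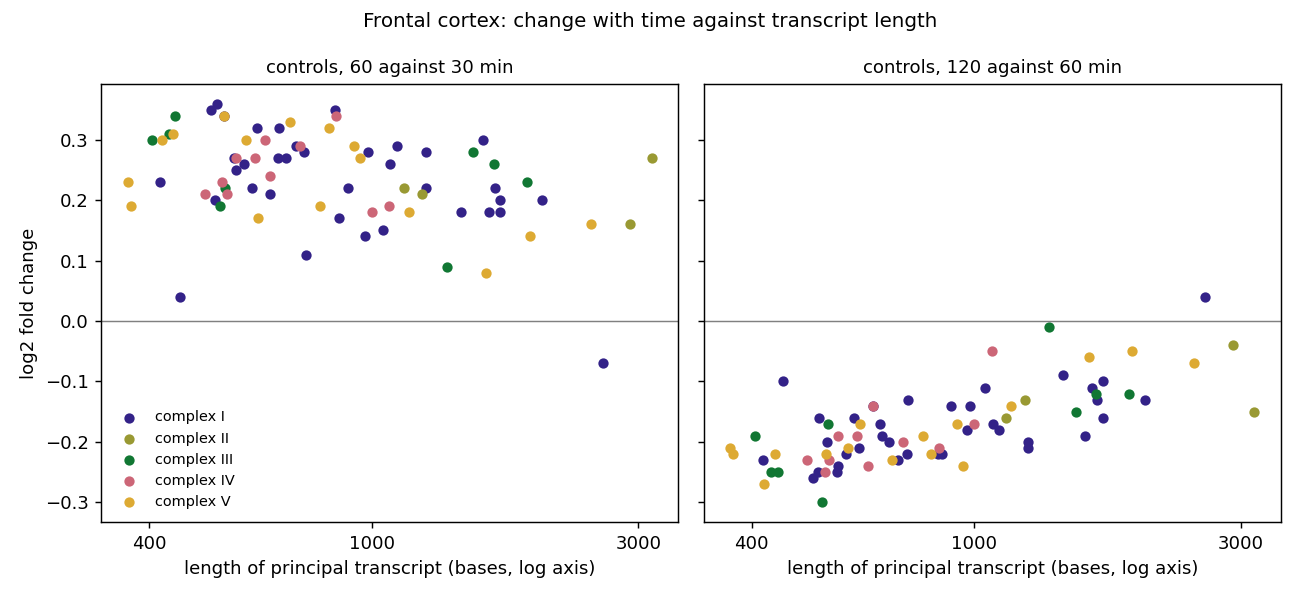
Log2 fold change of each subunit gene in frontal cortex controls (vertical axis) against the length of its principal transcript in bases (log axis), for 60 against 30 min (left) and 120 against 60 min (right), coloured by complex. Shorter transcripts tended to have the larger rise at 60 min and the larger fall by 120 min, with correlations of -0.40 and 0.70.

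The number of members called in the fall from 60 to 120 min depended on single libraries, and its size hardly did. Without control replicate 5 of 60 min, 11 members were called in place of 57, and without control replicate 2 of 120 min 26 were, while the members' median stayed between -0.21 and -0.16 when any 1 library was left out. In contrast, the rise from 30 to 60 min gave 64 to 72 when any 1 library was left out. Each library was marked by a pair of index sequences, of which the first, shared by several libraries, is here termed the index. This index could be fitted as a block for 1 of the 4 steps. That step, from 60 to 120 min in intruder libraries, then gave 0 called members with a median of -0.27.

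In amygdala members were called over time in intruder libraries, as a share near that of all genes called in either direction. At 60 min 7 of 81 members were called lower than at 30 min and 0 higher (7.41% of all genes called, 2.7% lower; median -0.17). The test of whether the course over time differed between intruder and control libraries called 0 members here. The 7 were Ndufb4, Ndufs5, Ndufs7, Ndufa8 and Ndufb6 of complex I, Sdhb (-0.18) and Atp5g2 (-0.18). Ndufb4 gave 48.8, 46.8, 43.4, 48.3 and 51.2 CPM at 30 min, then 40.4, 36.8, 35.3, 40.1 and 41.9, and by 120 min 36.4, 38.2, 41.5, 39.3 and 36.7. The 30 min libraries lay above all others (-0.29 ± 0.062 at 60 min, edgeR adjusted p = 0.00629, and -0.31 ± 0.062 at 120 min, edgeR adjusted p = 0.00173).

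At 120 min 9 of 81 members were called lower than at 30 min and 0 higher, below the share of all genes called in either direction (15% of all genes called, 6.09% lower; median -0.13). Among them were Atp5g2 (-0.22), Atp5d (-0.22), Ndufb6 (-0.23) and Cox7b2 (-1.12). Both counts changed with the processing, from 0 with the index as a block to 27 and 22 when the intruder libraries were fitted alone. Without intruder replicate 5 of 60 min the first count was 27, and without intruder replicate 1 of 30 min it was 1. Without intruder replicate 3 of 120 min the second was 16, and without intruder replicate 6 of 120 min or intruder replicate 1 of 30 min it was 5.

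Cell markers and read shares moved with these steps in amygdala intruder libraries. The mean log2 level of 5 astrocyte markers ran from 8.22 to 8.33 at 30 min, from 8.37 to 8.49 at 60 min (3 called higher) and from 8.37 to 8.63 at 120 min (4 called higher). That of 5 endothelial markers ran from 4.74 to 5.06, then from 4.31 to 5.13 and by 120 min from 4.03 to 4.61, with 3 called lower against 30 min. The share of reads in no annotated feature was 10.8% to 12% at 30 min, 11.7% to 13.8% at 60 min and 12.3% to 13.5% at 120 min. Cytosolic ribosomal protein genes had 16 of 83 called lower at 60 min and 33 at 120 min, with a median of -0.17 at each. The part of these measures in the fall was not tested.

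No member was called over time in amygdala controls, in amygdala intruder libraries from 60 to 120 min or in hypothalamus, by edgeR or by DESeq2. In amygdala controls edgeR gave 2, 4 and 1 members at an unadjusted p below 0.05 from 30 to 60, 60 to 120 and 30 to 120 min (10.7%, 9.53% and 7.51% of all genes at that p; 0.133%, 0.0232% and 0.145% called). Amygdala intruder libraries gave 3 from 60 to 120 min (11.1% at that p; 0.0695% called). In hypothalamus it gave 9, 1 and 7 in controls (7.55%, 8.49% and 10.2% of all genes at that p; 0.017%, 0.0396% and 0.175% called) and 3, 39 and 2 in intruder libraries (8.75%, 12.2% and 15.1% at that p; 0.0792%, 0.441% and 1.93% called) for the same steps. The 39 belong to the step from 60 to 120 min, where 78 of 81 members were higher (median 0.15), and without intruder replicate 1 of 120 min that median was 0.05. Whether the change with time differed between regions was not tested.

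The third comparison, which the study was designed for, set intruder against control libraries at each time. No member was called in any of the 9 comparisons, by edgeR or by DESeq2. All genes gave 0.538% called in amygdala and 0.192% in hypothalamus at 120 min and 0% in the other 7 comparisons. At an unadjusted p below 0.05 edgeR gave 0, 46 and 5 of 81 amygdala members at the 3 times in turn, where all genes gave 2.74%, 7.13% and 15.1%. It gave 29, 1 and 1 of 82 frontal cortex members (6.28%, 2.54% and 5.34% of all genes) and 0, 0 and 18 of 81 hypothalamus members (1.92%, 2.22% and 11.5%). Members of 1 library rise and fall together, so such counts are not independent of each other.

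The most one-sided comparison was amygdala at 60 min, where all 81 members were lower after the intruder, with a median of -0.16 and 0 over all genes. The smallest unadjusted p-values by complex were those of Ndufa7 (-0.28), Sdhb (-0.14), Uqcrq (-0.30), Cox7a2 (-0.20) and Atp5o (-0.19), with edgeR adjusted p from 0.538 to 0.661. Ndufa7 gave 39.8, 48.1, 51.8, 49.2 and 53 CPM in controls and 37.4, 40, 37.9, 37.7 and 45.4 in intruder libraries. Atp5o, which joins the 2 parts of ATP synthase, gave 128.1, 143.0, 155.6, 142.7 and 142.0 CPM in controls and 121.0, 114.8, 125.6, 124.2 and 134.2 in intruder libraries. The groups overlapped in both genes. In control replicate 1 all 81 members lay below the control mean (median -0.23), and in intruder replicate 5 only 48 of 81 did (median -0.02).

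The ribosomal protein genes moved likewise in that comparison, with 82 of 83 lower and a median of -0.14. All 5 intruder libraries carried the same first index sequence of their pairs, which 1 of the 5 controls shared, namely replicate 1. The share of reads in no annotated feature was 14.5% in that control, 10.6% to 12.2% in the other 4 and 11.7% to 13.8% in intruder libraries, and its part in the result was not tested. With the index as a block the members' median was 0.02, with GC content and length as an offset -0.10, and when 1 library was left out -0.21 to -0.13. Without control replicate 5, which had the choroid plexus markers, it was -0.16, and without control replicate 6, which had the striatal markers, -0.14.

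Frontal cortex at 30 min had 79 of 82 members lower after the intruder (median -0.10). The smallest unadjusted p-values by complex were those of Ndufa5 (-0.19), Sdhb (-0.11), Uqcrq (-0.17), Cox8a (-0.23) and Atp5g1 (-0.15), each with an edgeR adjusted p of 0.771. Atp5g1 gave 85.6, 91.6, 88.4, 95.1 and 89 CPM in controls and 81.7, 78.9, 80.3, 80.7 and 84.6 in intruder libraries. It and Ndufa5 were the 2 members whose groups did not overlap, as in 0.579% of all genes for lower values. At 60 and 120 min the medians were 0.02 and -0.01.

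Hypothalamus at 120 min had 79 of 81 members higher after the intruder (median 0.13). Atp5g3 gave 203.8, 174.5, 187.3, 189.2 and 204.1 CPM in controls and 265.6, 201.2, 201.6, 205.6 and 203.1 in intruder libraries. The highest value is that of intruder replicate 1, in which 80 of 81 members lay above the control mean (median 0.41). That library also had 10.05% of its reads in no annotated feature, against 12.1% to 12.6% in the rest of its group, and the part of this in the result was not tested. Without it the median over the members was 0.04, and without control replicate 6, a control with high thalamic markers, 0.16. Leaving out any other 1 library, control or intruder, gave a median within these limits. In the same comparison 2 of 5 endothelial markers were called lower (mean log2 level 4.41 to 4.57 in controls, 3.67 to 4.32 in intruder libraries), as were 2 of 6 mural markers (3.80 to 4.09 against 3.40 to 3.62). Of 5 red cell markers 0 were called and 5 had an unadjusted p below 0.05 (3.60 to 4.34 against 3.24 to 3.72). The part of these markers in the result was not tested.

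The remaining comparisons had medians of 0.05 (amygdala, 30 min), -0.04 (amygdala, 120 min), -0.05 (hypothalamus, 30 min) and 0.01 (hypothalamus, 60 min). At 30 min in hypothalamus, with 3 controls, Uqcr11, Ndufs6, Cox8a, Ndufa7 and Cox6b2 were lower without overlap, as were 1.66% of all genes. In Uqcr11 (48.5 CPM) and Cox6b2 (1.59 CPM) the lowest control and the highest intruder library have the same printed value. At 120 min in amygdala Atp5g2 was (1.53% of all genes), at 63.8, 58.6, 57.2, 53.5 and 54 CPM in controls and 51.6, 52.7, 53.5, 52.7 and 51.4 in intruder libraries. The lowest control and the highest intruder library differ there only beyond the printed digits.

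Tests of whether the intruder effect itself changed with time or region also called no member with edgeR or DESeq2. Between times, 21 amygdala, 8 frontal cortex and 2 hypothalamus members had an unadjusted edgeR p below 0.05, with 0%, 0% and 0.0113% of all genes called. Between regions there were 19, 22 and 6 such members at the 3 times in turn, with 0% of all genes called at each. The smallest edgeR adjusted p of a member was 0.273 between times, for Ndufa7 in amygdala, and 0.761 between regions.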

How the data were processed

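Gene counts of 90 single-end, stranded poly(A) RNA libraries were used as deposited. Per the submitters' processing notes the authors used CASAVA 1.8.2, TopHat2 2.0.8, HTSeq 0.6.1, edgeR 3.2.4 and R 3.0.0 with the mouse build NCBIM37. Reads that matched no feature (8.633% to 14.457%) or no unique position (9.786% to 11.503%) stayed out of library sizes. Symbols for 32938 of the 37991 identifiers, and transcript lengths, came from a GRCm38 annotation.

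Counts were analysed in R 4.3.3 with edgeR 4.0.16 (filterByExpr, TMM scaling, quasi-likelihood test). Each region was fitted with its 6 groups, each time with its 6 groups for the difference between regions, and the controls with their 9 groups. Adjustment (Benjamini-Hochberg) ran over all genes tested, and called means an adjusted p below 0.05. CPM values share TMM factors over the 90 libraries. Alternatives were DESeq2 1.42.0, upper-quartile scaling, no filter, other samples in the fit, the replicate number or index as a block, an offset for GC content and length, and leaving out each library. Same-numbered libraries did not deviate together in every pair of any intruder or time comparison, so numbers were not taken to pair them there. Between regions the same number names the same animal.

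The members and gene lists were chosen with earlier results of these data known. Named genes were, per complex, up to 2 called in each direction with the smallest adjusted p (or the smallest p where none was called), fixed core subunits and isoform families, the highest and lowest per length, and members failing the filter. The fits were tested on simulated data; a first criterion, the share of changed genes recovered, was missed and replaced by one on the recovered fold size and the share of false calls. The NRF1 and YY1 letters were shortened after longer forms had been searched, of 10 and 11 bases, and the counts rose with it: the longer NRF1 form stood before 4 members (5.97%, against 0.877% of all genes) and the longer YY1 form before 0 (against 0.248%).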

Additional observations from a re-analysis of the deposited data

Results flagged for a closer look

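Within groups of 4 to 10 libraries, 17 values stood apart from the rest by Dixon's 95% criterion, among 187 groups of values tested; chance alone gives about 1 in 20. A pair of libraries accounted for 8 of them. Intruder replicate 5 of amygdala at 60 min had the highest mean log2(CPM + 1) of its group for complex I (6.05, others 5.82 to 5.88), complex III (6.69, others 6.46 to 6.52), complex IV (7.14, others 6.91 to 6.98) and complex V (7.12, others 6.89 to 6.95). Intruder replicate 1 of hypothalamus at 120 min had the highest for complex I (6.33, others 5.92 to 6.00), complex II (7.28, others 7.03 to 7.09), complex III (6.87, others 6.50 to 6.61) and complex V (7.31, others 6.90 to 7).

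The other 9 values belong to low isoforms of cytochrome c oxidase. Cox8b reached 0.926 CPM in control replicate 5 of amygdala at 60 min (others 0.109 to 0.186) and 0.261 CPM in control replicate 1 of frontal cortex at 30 min (others 0.0425 to 0.104). Cox7b2 reached 0.386 CPM in control replicate 6 of amygdala at 120 min (others 0.149 to 0.212) and 0.261 CPM in control replicate 2 of hypothalamus at 60 min (others 0.115 to 0.145). Cox4i2 was low in intruder replicate 2 of amygdala at 30 min (0.635 CPM, others 1.17 to 1.23) and high in control replicate 1 of frontal cortex at 120 min (1.88 CPM, others 1.25 to 1.46). Cox6a2 was low in intruder replicate 4 of amygdala at 30 min (2.69 CPM, others 3.07 to 3.2). Cox6b2 was high in intruder replicate 3 of hypothalamus at 60 min (2.4 CPM, others 1.65 to 1.81), and Cox7a1 in control replicate 3 of frontal cortex at 30 min (1.37 CPM, others 1.1 to 1.16).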

How the results depend on the processing

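Of 240 counts of called members under other settings, 218 stayed within 1.5 times the reported count. Frontal cortex from 30 to 60 min in controls gave 44 with the GC and length offset; from 60 to 120 min it gave 12 in controls and 20 in intruder libraries with that offset, and 0 in intruder libraries with the index as a block. Frontal cortex controls from 30 to 120 min gave 7 with DESeq2, 7 with the offset and 6 with the replicate block. Amygdala intruder libraries gave, from 30 to 60 and from 30 to 120 min, 20 and 15 with DESeq2, 19 and 17 with upper-quartile scaling, 27 and 22 fitted alone, 2 and 3 with the offset and 0 and 0 with the index block. The replicate block gave 2 in the second and changed no other count by more than 1.5 times besides those named. With the animal as replicate block, regions gave 69 (amygdala against frontal cortex), 73 (hypothalamus against frontal cortex) and 56 (amygdala against hypothalamus) calls. Controls of 30 min alone gave 14, 33 and 26, of which 12 lower, 26 lower and 19 higher, and those of 120 min alone 29 for amygdala against hypothalamus, 27 of them higher; the report gives the share of all genes called beside each.

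Leaving out 1 library gave 11 to 66 in frontal cortex controls from 60 to 120 min, 0 to 5 from 30 to 120 min, 1 to 27 and 5 to 16 in amygdala intruder libraries, 0 to 1 in hypothalamus intruder libraries from 30 to 120 min and 0 to 1 for the intruder in amygdala at 60 min. Signs turned for Uqcrq in amygdala at 60 min (index block, 0.02), Cox8b in amygdala against frontal cortex (-0.14 without amygdala control replicate 5 of 60 min, and up to 0.38 without another library), Uqcrc1 in amygdala against hypothalamus (-0.03, offset) and Ndufs7 there (from -0.04 to 0.01, leaving out 1 library). For hypothalamus against frontal cortex they turned for Cox7a1 (0.02, offset; 0.04, upper quartile), Cox7a2l (0.02, upper quartile), Ndufs1 (0.06, upper quartile; 0.01, leaving out 1 library) and Ndufs7 (0.08, offset). Of 22 sign changes among named members these are 13; the other 9 rounded to 0.00 without a call and were set aside by a rule made after seeing them. The cause was not tested. Cox7b2 and Cox8b had a median of at most 0.322 CPM over the controls of any region, and the part of sequencing depth in their results was not tested.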
